A study of Rattus norvegicus with 24 samples.

Results

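The subject is the mesenteric artery of the ovariectomised female rat given vehicle alone, described gene by gene from the brightest to the dimmest signal. It rests on 8 of the 24 arrays of the study, those of the 4 vehicle animals out of 12, numbered 3, 4, 5 and 8. Every probe that carried a single gene symbol was ranked by its mean level over the 4 animals. Of 10399 probes on the array, 7294 carried 1 symbol, 88 carried several and 3017 carried none. A level could be computed for 7260 of the 7294, and these 7260 probes covered 6429 genes. The remaining 34 were blank on all 8 arrays and have no rank.

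The study compared vehicle, estradiol benzoate and testosterone in Sprague Dawley rats, with 4 animals for each treatment. All vehicle animals had been ovariectomised at 3 weeks of age and left to recover for 2 weeks. They then received sesame oil into the peritoneum for 4 days, and were 5.5 weeks old at the end. No intact or sham-operated animals were analysed here, so the levels below are those of a young artery without ovaries and have no hormone-replete counterpart in the text. Arteries were freed of fat, veins and connective tissue by dissection, and whole arteries were homogenised. In such bulk tissue, fewer cells of a type and less RNA per cell cannot be told apart. From 2 µg of total RNA, labelled cRNA was made, and 10 µg of it was hybridised to a CodeLink array for 18 h at 37 °C. Each animal gave 1 cRNA preparation, which was put on a pair of arrays.

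The mesenteric arteries are resistance vessels that feed the gut. Their wall has an inner lining of endothelial cells, a middle coat of smooth muscle held by elastic and collagen fibres, and an outer adventitia with fibroblasts, macrophages and nerve endings, and it lies embedded in mesenteric fat. Smooth muscle tone in this bed is set by sympathetic nerves, circulating hormones and endothelial mediators such as nitric oxide, prostacyclin and endothelin. Sex steroids act on such cells through nuclear receptors, and removing the ovaries takes away their main source in the female.

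A level is the log2 of the deposited intensity, averaged over the duplicate arrays of an animal and then over animals. It is given as mean ± SD over 4 animals unless fewer are stated. Intensities had no stated unit, and the array medians lay between 0.926 and 0.943, so a level of 0 is close to the middle of an array. Probes were called bright when they were in the highest 10% of the ranking, that is at 2.85 or above. They were called near background at -1.39 or below, the 75th percentile of 34 reference genes. These had been chosen as genes of retina, sperm, pituitary, kidney, lung and other organs, and whether the artery lacks each was not tested. Among them Olr1, at -0.75 ± 0.12, is the oxidised LDL receptor, which cells of the vessel wall also make. The line was not redrawn without it. The levels of the 34 ran from -6.64 to 1.52 with a median of -2.92. Probes between these bounds are called middling. Probes differ in how strongly they bind their target, so this is an order of signal and not of transcript number. The 768 genes with several ranked probes show its size. Their brightest and dimmest probes lay a median of 1.93 apart, and in 345 of them (44.9%) the probes fell into different classes. In 21 genes 1 probe was bright and another near background. For such genes the brightest probe stands for the gene in the group descriptions.

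The bright class held 726 probes for 698 genes, the middling class 4257 probes and the near-background class 2277 probes (31.4%). The lowest bright probe was that of Smpd1 at 2.85 ± 0.32, and the next one, that of Cacna2d1, had 2.85 ± 0.28. At the other bound Pik3ip1 at -1.39 ± 0.18 was the last middling probe and 1 probe of Pc at -1.39 ± 0.27 the first near background. Among probes with a level in all 4 animals, the animals taken singly gave the same class in 84.5% of the bright, 91.9% of the middling and 88.5% of the near-background probes. Across probes, Pearson's r between duplicate arrays was 0.983 to 0.991 and between animals 0.969 to 0.989, a description over probes that share arrays and carry the same affinities.

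**Figure D1:**
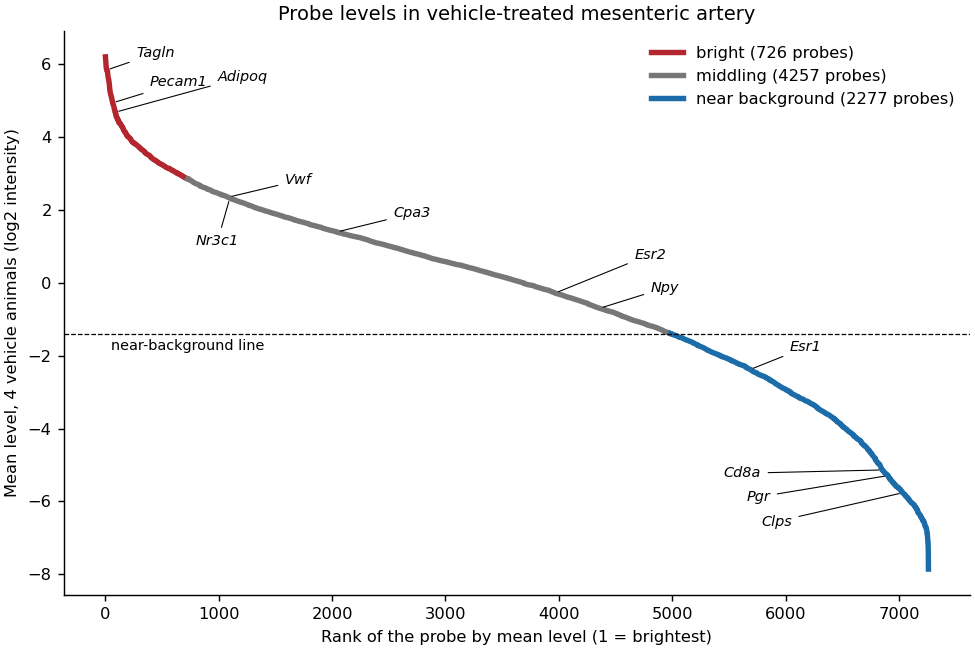
Mean level over the 4 vehicle animals (log2 intensity, vertical axis) of the 7260 ranked probes against their rank (horizontal axis), coloured by class. The curve falls steeply at the bright end, is nearly straight through the 4257 middling ones and steepens again at the dim end; genes named in the text are marked.

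The spread between animals depended on brightness. The median SD over animals was 0.161 in the brightest 726 probes and 0.483 in the dimmest 726. Duplicate arrays of the same cRNA differed by a median SD of 0.117 in the brightest 726 and 0.563 in the dimmest 726. The SD over animals is one of means of duplicate arrays, and the duplicate SD is one of single arrays. These SDs are therefore not on the same scale. All 53 intensities at or below 0 among ranked probes, which have no log, belonged to near-background probes. At the bright end the limit was another one. Blank cells took 48.1% of the spots of the 20 brightest probes, against 5.0% at ranks 21 to 100 and 2.46% at ranks 101 to 726. Of the 20 brightest probes, 14 had a level in fewer than 4 animals. What leaves a cell blank is not given in the sources used here.

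**Figure D2:**
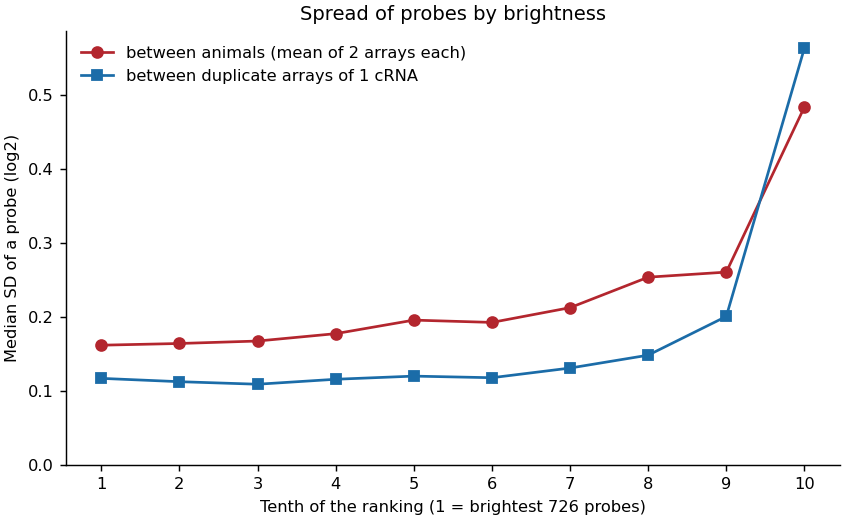
Median SD of a probe (log2 units, vertical axis) in successive sets of 726 probes of the ranking (horizontal axis, 1 = brightest), between the 4 animals (circles) and between duplicate arrays of 1 cRNA (squares). Between-animal SD rises from 0.161 to 0.483 along the ranking, and only in the dimmest set is the duplicate SD, 0.563, the larger of the pair. The first is an SD of means of duplicate arrays and the second one of single arrays, so their scales differ.

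The upstream sequence is a property that the ranking did not use, and its motif content is given here for each brightness class. A RefSeq promoter (GRCr8) was found by gene ID for 5301 of the 6429 genes. The 250 bases before the start were searched on both strands. The GC-box core GGGCGG is a binding motif of the Sp family of general activators. It was present in 63.6% of bright, 60.5% of middling and 47.3% of near-background genes. The share was 57.2% of all ranked genes and 32.4% of all 27457 promoters in the table. The TATA-box core TATAAA was present in 7.14%, 6.87% and 9.99%, with 7.77% of all ranked genes and 13.1% of all promoters. The CCAAT motif differed little, at 37.3%, 35.8% and 34.3%, with 35.5% of all ranked genes and 34.3% of all promoters. The median number of CpG pairs was 18, 17 and 11. GGGCGG itself holds a CpG pair, so its share and the CpG count are not separate measures. A match is only a run of letters, and no test was made. The CArG box, bound by serum response factor, was found in 1.05%, 1.20% and 1.08% of the classes and in 0 of 13 smooth muscle promoters in this window. The GC-box core was present in 69.2% of 13 smooth muscle promoters and 25% of 28 promoters of reference genes. The TATA-box core was present in 7.69% and 32.1% of these sets. The sequences below are single examples and do not stand for such sets. They show a bright smooth muscle gene with GGGCGG matches, the bright endothelial and caveolar gene Cav1, and 2 reference genes near background. With them are 2 liver-type genes with the motif pair TATAAA and CCAAT, whose levels differed widely between animals. Cav1 has a GGGCGG and a TATAAA match, both on the other strand. The TATAAA match lies far from the start, and whether it acts as a TATA box was not tested. Each sequence is read 5′ to 3′ on the strand of its gene and ends just before the start. Capitals mark the 3 motifs, whether read on this strand or on the other.
Ppp1r14a, chr1:93713852-93714101, plus strand: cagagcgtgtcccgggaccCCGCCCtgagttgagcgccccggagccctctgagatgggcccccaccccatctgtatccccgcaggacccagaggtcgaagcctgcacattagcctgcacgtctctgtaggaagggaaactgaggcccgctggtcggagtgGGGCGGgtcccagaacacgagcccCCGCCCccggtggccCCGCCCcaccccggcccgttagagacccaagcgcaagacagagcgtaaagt
Cav1, chr4:46606288-46606537, plus strand: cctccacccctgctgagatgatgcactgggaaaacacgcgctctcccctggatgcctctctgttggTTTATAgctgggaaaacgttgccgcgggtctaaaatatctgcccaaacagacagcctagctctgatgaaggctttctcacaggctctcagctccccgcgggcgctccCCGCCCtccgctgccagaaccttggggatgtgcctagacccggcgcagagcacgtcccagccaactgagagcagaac
Fabp1, chr4:104749090-104749339, plus strand: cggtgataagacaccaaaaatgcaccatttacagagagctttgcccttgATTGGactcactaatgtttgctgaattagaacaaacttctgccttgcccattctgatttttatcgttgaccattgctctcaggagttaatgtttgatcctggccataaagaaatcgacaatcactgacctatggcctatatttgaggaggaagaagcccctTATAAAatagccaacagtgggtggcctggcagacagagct
Cyp2e1, chr1:205269717-205269966, plus strand: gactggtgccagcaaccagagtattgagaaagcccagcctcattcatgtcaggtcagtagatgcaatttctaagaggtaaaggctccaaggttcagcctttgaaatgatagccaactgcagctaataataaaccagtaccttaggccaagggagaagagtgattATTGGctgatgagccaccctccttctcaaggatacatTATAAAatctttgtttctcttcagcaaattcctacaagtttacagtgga
Prl, chr17:38298218-38298467, minus strand: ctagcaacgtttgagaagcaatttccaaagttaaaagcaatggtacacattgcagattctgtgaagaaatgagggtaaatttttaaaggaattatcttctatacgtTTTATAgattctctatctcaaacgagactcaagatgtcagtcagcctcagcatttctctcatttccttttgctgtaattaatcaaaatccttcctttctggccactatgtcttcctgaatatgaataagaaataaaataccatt
Umod, chr1:183261017-183261266, minus strand: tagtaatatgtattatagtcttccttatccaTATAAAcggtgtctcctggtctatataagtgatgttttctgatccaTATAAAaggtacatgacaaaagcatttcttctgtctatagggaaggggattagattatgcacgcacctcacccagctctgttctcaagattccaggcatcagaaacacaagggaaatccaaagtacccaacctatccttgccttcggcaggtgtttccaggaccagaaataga
Ppp1r14a, with 4 GGGCGG matches, is the bright smooth muscle gene among them, and Umod, with 2 TATAAA matches, was the dimmest reference gene at -6.64 ± 0.51.

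Ribosomal proteins led the ranking. Rps29, a small-subunit protein, was first with levels of 6.23 in animal 3 and 6.18 in animal 8 and no value in the other two. Rps6 followed at 6.16 ± 0.11 (n = 3), Rpl10 at 6.10 ± 0.13 (n = 3) and Rps19 at 6.10 ± 0.14. Of 20 ribosomal protein genes measured, 17 were bright and 3 middling, and their median was 5.71 beside 0.22 for all 6429 genes. The dimmest of the list were Rps27l at -0.98 ± 0.02 and Rpl28 at -1.08 ± 0.26. Of 38 subunits of oxidative phosphorylation, 22 were bright and 3 near background, with a median of 3.42. The ATP synthase subunit Atp5mc3 was at 4.91 ± 0.15 and Atp5pd at 4.86 ± 0.20. The muscle-type isoforms Cox6a2 at -5.49 ± 0.44 and Cox8b at -5.90 ± 0.86 lay at the bottom of that list. Both lists were drawn up after the ranking had been seen. Over all genes, 10.9% were bright and 28.7% near background.

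The genes among the 20 brightest that are not ribosomal proteins included Vim, the intermediate filament protein of mesenchymal cells, at 6.03 (animal 3 only), the matrix protein Sparcl1 at 5.91 (animal 8 only), and Mgp, the matrix Gla protein that inhibits calcification, at 5.79 ± 0.17 (n = 3). Anxa1, annexin A1, had 5.68, 5.65, 5.96 and 6.20 in animals 3, 4, 5 and 8. The secreted selenium carrier Selenop was at 5.87 ± 0.33 (n = 3), and the translationally controlled protein Tpt1 at 5.88 ± 0.22 (n = 3). With the exact order resting on 1 to 3 animals for many of these probes, neighbours at the top do not differ beyond their spread.

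Smooth muscle and fibroblast genes had the highest medians of the cell type lists. Of 32 listed contractile genes, 16 were ranked, with 9 bright, 7 middling and none near background, and a median of 3.65. Over the genes with a value, the fibroblast median was 3.68, 3.30, 3.21 and 3.85 in animals 3, 4, 5 and 8. The smooth muscle median was 3.43, 2.78, 3.02 and 3.46. Blank cells were skipped in these medians, and they fell on the brightest smooth muscle genes. Tagln, Myh11 and Cnn1 had no value in animal 4, Myh11 and Cnn1 none in animal 5, and Myh11 none in animal 3. The order of these medians in animals 3, 4 and 5 is therefore not settled. Tagln, the actin-binding protein transgelin, had 5.92, 5.74 and 5.87 in animals 3, 5 and 8 and no value in animal 4. Myh11, the smooth muscle myosin heavy chain, had a value only in animal 8, at 5.84. Cnn1, calponin, had 5.69 in animal 3 and 5.76 in animal 8. The probes for the contractile and scaffold genes Tpm2 and Flna were among the 34 blank everywhere. Below these, Mustn1 had 4.28, 4.74, 4.11 and 4.39 in animals 3, 4, 5 and 8, and the LIM protein Csrp1 4.17, 4.74, 3.97 and 4.28. Animal 4 was highest for both. Ppp1r14a, an inhibitor of myosin phosphatase, was at 3.55 ± 0.43. The small heat shock protein Hspb6 was at 2.36 ± 0.42, and smoothelin, Smtn, at 2.24 ± 0.19. The 2 dimmest were Pdlim7 at -0.53 ± 0.14 and tropomyosin Tpm1 at -0.70 ± 0.26, each read by 1 probe.

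Pericyte genes were spread over all classes, with 3 bright, 3 middling and 1 near background among 7 ranked, and a median of 1.76. Abcc9, the regulatory subunit of the vascular ATP-sensitive potassium channel, was at 4.16 ± 0.16. Its pore partner Kcnj8 was at 1.05 ± 0.10. Cspg4 was at 3.25 ± 0.25 and the growth factor receptor Pdgfrb at 3.06 ± 0.35, while a second probe of Pdgfrb gave -2.99 ± 0.52. Rgs5, a brake on G protein signalling, was at 1.76 ± 0.18. Notch3, the receptor that maintains arterial smooth muscle, was at -1.60 ± 0.23.

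The endothelial list had a lower middle and a wide range, from 5.49 to -3.57 over 24 ranked genes of 36 listed. Of these, 3 were bright, 16 middling and 5 near background, with a median of 1.42. Cav1, the caveolar coat protein that muscle and fat cells also make, had 5.38, 5.52, 5.50 and 5.55 in animals 3, 4, 5 and 8. Pecam1, the junctional protein CD31, had 5.06, 4.82, 5.09 and 4.80, although its second probe was at 1.26 ± 0.59. The angiopoietin receptor Tek was at 3.63 ± 0.10 and its relative Tie1 at 2.66 ± 0.19. Their second probes gave -2.48 ± 0.40, near background, and -1.38 ± 0.36, just above the line. Vwf, the clotting factor stored in endothelial granules, had 2.59, 2.78, 2.16 and 1.87. The gap junction proteins Gja4 and Gja5 were at 1.81 ± 0.09 and 0.23 ± 0.19. Another Gja5 probe was near background, at -2.25 ± 0.40. The inflammatory adhesion molecules Selp at -1.35 ± 0.26 and Sele at -2.05 ± 0.32 lay around the near-background line. The VEGF receptor Kdr at -2.57 ± 0.59, the apelin receptor Aplnr at -3.24 ± 0.35 and the sphingosine phosphate receptor S1pr1 at -3.57 ± 0.88 were below it.

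Of the lymphatic genes only Lyve1 was bright, at 3.80 ± 0.29, and some macrophages also carry it. Flt4 at -2.06 ± 0.35 and Pdpn at -2.36 ± 0.39 were near background.

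Fibroblast and matrix genes stood beside those of smooth muscle. Of 9 ranked fibroblast and adventitial genes, 5 were bright and 4 middling, with a median of 3.51. Col1a1, the main fibrillar collagen chain, had 5.70, 5.68, 6.01 and 5.44 in animals 3, 4, 5 and 8. Periostin, Postn, was at 5.69 ± 0.16. The microfibril proteins Mfap5 and Mfap4 were at 5.53 ± 0.16 and 4.65 ± 0.12. Lumican, Lum, was at 3.51 ± 0.31 and the Wnt antagonist Sfrp4 at -0.30 ± 0.26. Dcn, decorin, had a blank probe throughout. The elastic fibre and basement membrane list had 9 bright, 9 middling and 2 near-background genes and a median of 2.64, and Eln, elastin, was blank on every array. Its bright members besides Mgp were Sparc at 4.71 ± 0.09, Col6a1 at 4.49 ± 0.13, Col15a1 at 4.31 ± 0.43, the elastic fibre assembler Fbln5 at 4.08 ± 0.21, Col5a2, Col5a1, the elastin cross-linker Loxl1 at 3.13 ± 0.25, and Fbln2. The middling members included laminin Lama4 at 2.70 ± 0.27, collagen Col4a1 at 2.59 ± 0.22 and perlecan, Hspg2, at 0.46 ± 0.35. Another Hspg2 probe gave -4.05 ± 0.12. Nidogen, Nid1, at -1.68 ± 0.52 was near background. Fibrillin-2, Fbn2, the developmental form, was also near background, at -4.47 ± 1.89, and Fbn1 was at 2.04 ± 0.34. Tnc, tenascin C, varied most among the tested genes of this list, at 2.43, 2.88, 2.46 and 1.20 in animals 3, 4, 5 and 8.

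White adipocyte genes were found in all 3 classes in these dissected arteries. Of 20 ranked white adipocyte genes, 8 were bright, 11 middling and 1 near background, with a median of 2.02. Fabp4, a fatty acid carrier of fat cells and also of capillary endothelium and macrophages, had 4.38, 4.80, 4.76 and 4.87 in animals 3, 4, 5 and 8. Adipoq, adiponectin, which is made by fat cells, had 4.73, 4.55, 4.55 and 4.90. Both were above the bright bound of 2.85 in each of the 4 animals. How much fat was left on the vessels was not tested. Pck1, which makes glycerol phosphate in fat, was at 4.55 ± 0.49, and the triglyceride lipase Pnpla2 at 4.30 ± 0.12. Pparg, the regulator of adipocyte fate, was at 3.66 ± 0.28, with 1.30 ± 0.36 on a second probe. The lipogenic enzymes Fasn, at 4.30, 4.63, 3.40 and 4.29, and Acly, at 3.28, 4.08, 2.91 and 3.71, were both lowest in animal 5. Lipe, hormone-sensitive lipase, was at -1.03 ± 0.32, and leptin, Lep, had a value only in animal 3, at -2.72. The brown adipocyte list had no bright gene, a median of -1.22, Cidea at 1.71 ± 0.17 and Ucp1, the uncoupling protein, at -1.63 ± 0.15.

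Among leukocytes, macrophage and lymphocyte genes lay at opposite ends. All 13 ranked macrophage genes were above the line, 5 of them bright, with a median of 2.63. The complement subunits C1qb at 3.85 ± 0.42, C1qa at 3.13 ± 0.32 and C1qc at 2.56 ± 0.28, the signalling adaptor Tyrobp at 3.82 ± 0.27 and the endotoxin co-receptor Cd14 at 3.13 ± 0.30 were each highest in animal 5. Cd74, the class II invariant chain, had 3.54, 3.77, 4.12 and 4.16 in animals 3, 4, 5 and 8. The lowest of the list were Ptprc, the pan-leukocyte CD45, at -0.10 ± 0.21 and Itgam at -0.11 ± 0.07. Another Ptprc probe was near background, at -2.02 ± 0.51. Of 11 ranked lymphocyte genes, 10 were near background, with a median of -3.89, and the exception was Klrd1 at -1.14 ± 0.90. Its second probe, at -3.18 ± 0.48, was near background. The T cell genes Cd3d at -2.15 ± 0.37, Cd4 at -4.90 ± 0.83 and Cd8a at -5.14 ± 0.58 were all below the line. Mast cell genes were in between, with 5 middling and 3 near background. The mast cell proteases Cma1 at 2.25 ± 0.13 and Cpa3 at 1.40 ± 0.27 led them, while the growth factor receptor Kit was at -2.41 ± 0.27.

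Nerve genes were largely low. Of 14 ranked, 1 was bright, 6 middling and 7 near background, with a median of -1.40. The bright one was Prph, the intermediate filament peripherin of peripheral neurons, with 2.74, 3.40, 4.07 and 3.74 in animals 3, 4, 5 and 8. The sympathetic genes Npy at -0.70 ± 0.25 and Dbh at -0.97 ± 0.14 and the sensory peptide Calca at -1.08 ± 0.15 were close above the line. On its second probe Calca gave -6.69 ± 0.47, far below the line. Synaptic Snap25 at -5.67 ± 0.57 and the granule protein Chgb at -5.72 ± 0.78 were far below it. Schwann cell genes were split, with 3 of 8 bright, 4 middling and 1 near background, and a median of 0.68. Pmp22, a myelin protein also made by fibroblasts, was at 5.02 ± 0.36 (n = 3), Mal at 3.27 ± 0.18 and Cnp at 3.09 ± 0.19. S100b was at 2.22 ± 0.18 and the lineage regulator Sox10 at -0.86 ± 0.32.

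**Figure D3:**
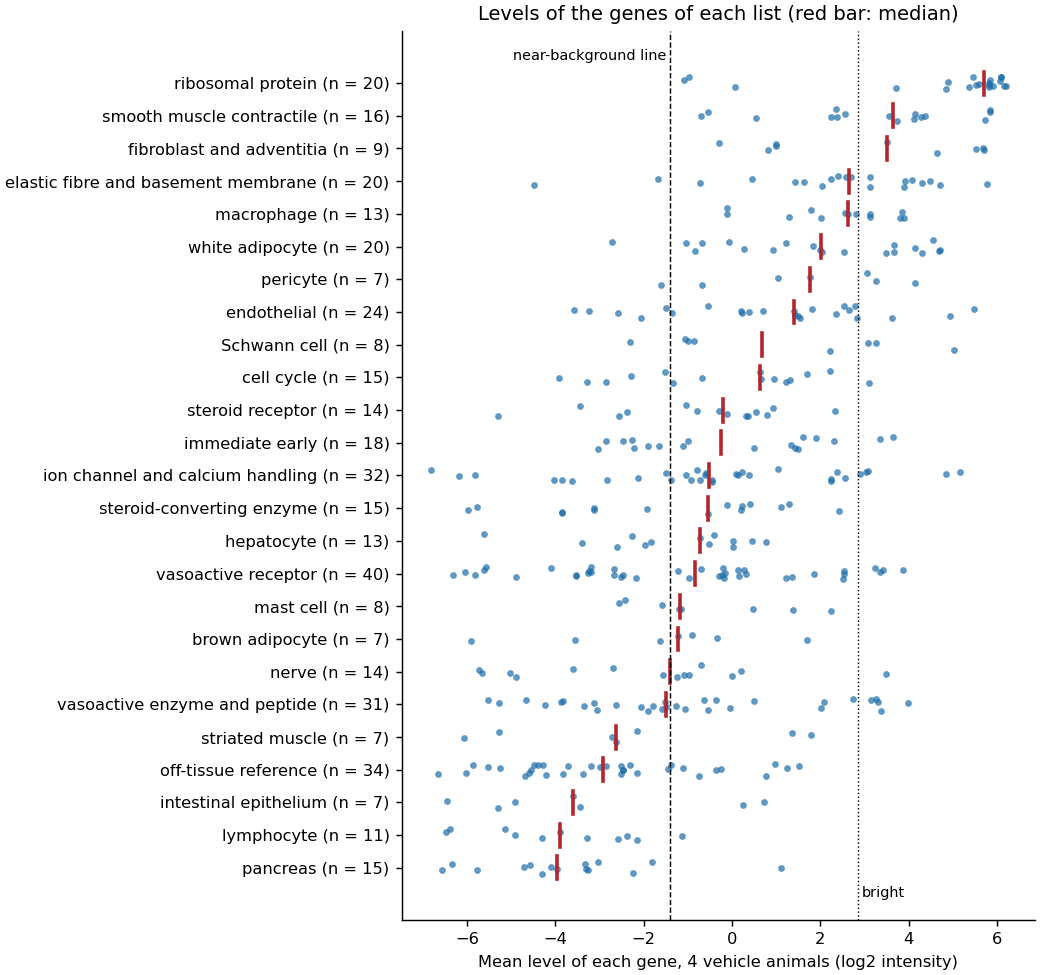
Mean level over the 4 vehicle animals (log2 intensity, horizontal axis) of each ranked gene (points) of the lists on the vertical axis, with the list median as a red bar. The dashed line is the near-background line at -1.39 and the dotted line the bright bound at 2.85; smooth muscle and fibroblast medians lie right of the bright bound, and lymphocyte and pancreas medians far left of the near-background line.

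Genes of neighbouring or distant organs gave the contrast. Of 15 ranked pancreas genes, 14 were near background with a median of -3.95, and only Ppy was above the line, at 1.10 ± 0.18. Of 7 ranked genes of intestinal epithelium, 5 were near background, among them sucrase-isomaltase, Si, at -3.60 ± 0.10 and Muc2 at -6.45 ± 1.27. The striated muscle list had 5 of 7 near background, with Acta1, skeletal muscle actin, at 1.80 ± 0.69 and myoglobin, Mb, at -6.07 ± 0.54. Among the erythroid genes Ahsp, the haemoglobin-stabilising protein, was bright at 3.99 ± 0.21, while Alas2 at 0.11 ± 0.62 and Slc4a1 at -0.92 ± 0.26 were middling. The mesothelial gene Msln was at -0.33 ± 0.35 and Wt1 at -3.52 ± 0.30. Counting the cell type lists by their medians, 11 of 18 lay above the near-background line. That count was 9 without animal 5 and 12 without animal 4 or without animal 8. It was 7 with the line at the 90th percentile of the reference genes, where the brown adipocyte, mast cell, erythroid and hepatocyte medians lay below it.

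Receptors for sex steroids were not among the bright genes. Esr2, estrogen receptor beta, had -0.31, -0.26, -0.18 and -0.37 in animals 3, 4, 5 and 8 on 1 probe and -1.33 ± 0.17 on another, both middling. Esr1, estrogen receptor alpha, had -2.47, -2.23, -2.36 and -2.45 on 1 probe and -4.81 ± 0.84 on another, both near background. These are different probes, and the gap between them is no ratio of transcripts. Gper1, the membrane estrogen receptor, had -3.37, -3.35, -3.47 and -3.56. Pgr, the progesterone receptor, had -5.27, -5.07, -5.42 and -5.40. Each of the 4 animals put Gper1, Pgr and both Esr1 probes below the near-background line. Of 14 ranked nuclear and steroid receptors, none was bright, 10 were middling and 4 near background, and the median was -0.20. The list's brightest was Nr3c1, the glucocorticoid receptor, with 2.09, 2.20, 2.31 and 2.70, followed by Nr3c2, the mineralocorticoid receptor, at 0.94 ± 0.06. The vitamin D receptor Vdr was at 0.36 ± 0.07 and the venous fate regulator Nr2f2 at 0.33 ± 0.47. Vdr gave -2.82 ± 0.29 on another probe. The androgen receptor had no ranked probe.

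Enzymes that make or remove steroids gave a similar picture. Of 15 ranked, none was bright, 8 were middling and 7 near background. Hsd11b1, which regenerates active glucocorticoid, was the brightest, with 2.06, 2.15, 2.67 and 2.79 in animals 3, 4, 5 and 8. Hsd11b2, which inactivates glucocorticoid, was at -0.55 ± 0.31 on 1 probe and -3.31 ± 0.27 on another. Hsd17b12 was at 1.30 ± 0.24. Cyp17a1, an androgen-forming enzyme, gave 1.12 ± 0.22 on 1 probe and -5.22 ± 1.05 on another. Aromatase, Cyp19a1, which turns androgens into estrogens, was at -5.78 ± 0.66, and Hsd17b3, which forms testosterone, at -5.97 ± 0.29.

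**Figure D4:**
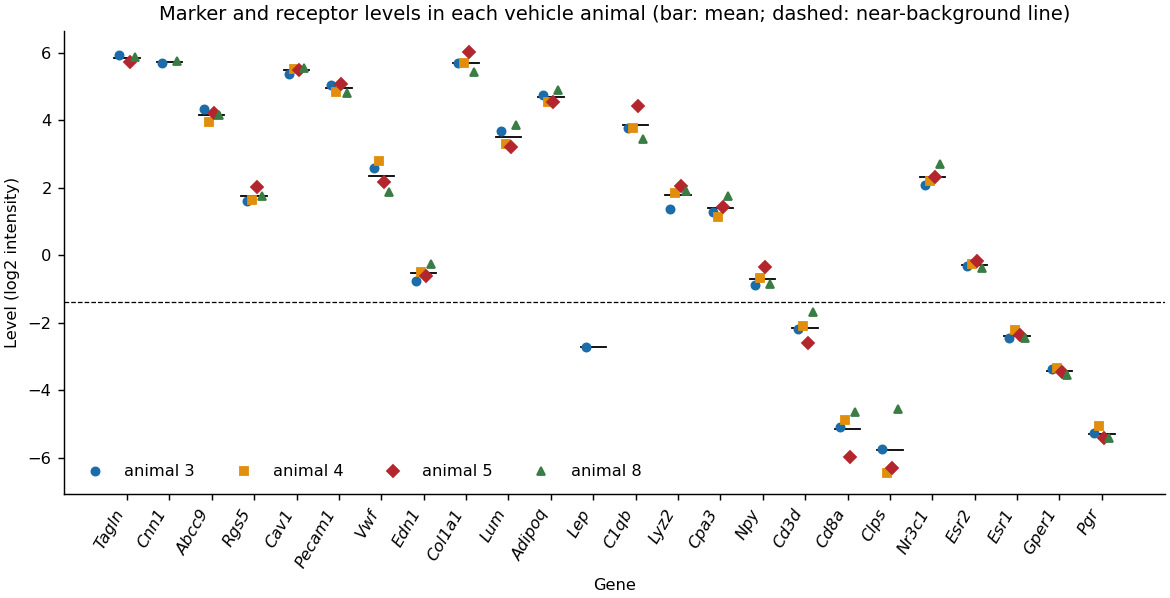
Level in each vehicle animal (symbols; log2 intensity, vertical axis) of 24 marker and receptor genes, with the mean as a bar and the near-background line dashed. Tagln has values in 3 animals, Cnn1 in 2 and Lep in 1; the 4 animals lie close together for Cav1, Esr2, Esr1, Gper1 and Pgr, and all of Esr1, Gper1 and Pgr lie below the line.

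Of 40 ranked receptors for vasoactive agents, 4 were bright, 18 middling and 18 near background, with a median of -0.83. The bright ones were Tacr1, the substance P receptor, at 3.89, 3.90, 3.89 and 3.81 in animals 3, 4, 5 and 8, the adenosine receptor Adora3 at 3.43 ± 0.16, the ATP-gated channel P2rx1 at 3.36 ± 0.21 and the neuropeptide Y receptor Npy1r at 3.25 ± 0.29. Second probes of P2rx1 and Npy1r were middling, at 2.19 ± 0.15 and 0.49 ± 0.33. P2rx1 and Npy1r are the smooth muscle receptors for the cotransmitters of sympathetic nerves. The vasopressin receptor Avpr1a was at 1.23 ± 0.22. The alpha-1 adrenoceptors Adra1b at -0.23 ± 0.13 and Adra1d at -0.70 ± 0.16 were middling, and Adra1a at -5.61 ± 0.69 near background. The thromboxane receptor Tbxa2r was at -0.18 ± 0.14. Muscarinic Chrm3, which triggers endothelial relaxation by acetylcholine, was at -4.89 ± 0.34, and the serotonin receptor Htr2a at -6.05 ± 1.09. The calcitonin family partners Ramp1 and Ramp2 were both at 2.54, with an SD of 0.08 and 0.24.

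The enzymes and peptides of vascular tone had 5 bright, 10 middling and 16 near-background genes and a median of -1.49. Bright were superoxide dismutase Sod1 at 4.00 ± 0.15, prostacyclin synthase Ptgis at 3.39 ± 0.17, the contraction switch Rhoa at 3.32 ± 0.07, the nitric oxide receptor subunit Gucy1a1 at 3.26 ± 0.15, and the endothelin converting enzyme Ece1 at 3.16 ± 0.17. Cyclooxygenase 1, Ptgs1, was at -0.35 ± 0.22, endothelin, Edn1, at -0.53 ± 0.21 and angiotensin converting enzyme, Ace, at -1.49 ± 0.21. Second probes put Gucy1a1 at 1.75 ± 0.23, middling, and Edn1 at -2.46 ± 0.33, near background. Of the nitric oxide synthases, Nos2 at -3.05 ± 0.20 and Nos1 at -3.35 ± 0.17 were near background. Gch1, which starts synthesis of their cofactor, was at -5.27 ± 0.78.

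Of 32 ranked genes for ion channels and calcium handling, 5 were bright, 18 middling and 9 near background. Calmodulin, Calm2, was at 5.17 ± 0.09. Phospholamban, Pln, the brake on the sarcoplasmic calcium pump, had 4.95, 4.93, 4.57 and 4.95 in animals 3, 4, 5 and 8, with -0.19 ± 0.39 on a second probe. The calcium-activated potassium channel was represented by its smooth muscle subunit Kcnmb1 at 2.56 ± 0.18 and its pore Kcnma1 at 2.25 ± 0.16. The other 2 Kcnma1 probes gave -1.99 ± 0.18 and -4.97 ± 0.20. The L-type calcium channel Cacna1c was at 0.15 ± 0.22. The pump Atp2a2 was at -3.62 ± 0.57, and Atp2a3 at 2.39 ± 0.16. The ryanodine receptors ran from Ryr3 at -0.80 ± 0.40 to Ryr1 at -5.81 ± 0.51 and Ryr2 at -6.81 ± 0.84.

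Immediate early genes, which respond to handling within minutes, were mixed, with 2 of 18 bright and 7 near background. Ccn2 was at 3.64 ± 0.28 and Klf6 at 3.36 ± 0.21. Fos had 1.42, 1.43, 1.51 and 2.13 in animals 3, 4, 5 and 8 on its brightest probe, which was highest in animal 8. Its other probe was at 0.03 ± 0.54. Fosb was at -3.04 ± 0.28 and Egr1 at -2.22 ± 0.15. Of the genes used as loading references, Gapdh was at 4.56 ± 0.15, Hprt1 at 4.55 ± 0.09 and Ppia at 5.82 ± 0.12 (n = 3), while Tfrc was at 0.30 ± 0.43.

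The 5 genes just above the middle of the ranking were Tmem119, Nup43, Sf3a1, Mn1 and Ube2j1, and the 5 just below it Slc6a8, Arhgap10, Lman1, Akap10 and Rassf1. All 10 had a level of 0.05 or 0.06 after rounding. They include a nucleoporin (Nup43), a splicing factor (Sf3a1), a ubiquitin-conjugating enzyme (Ube2j1) and a cargo receptor of the secretory pathway (Lman1). Akap10 had the smallest SD of these, 0.05, and Tmem119 the largest, 0.41.

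The 10 dimmest genes lay between -6.87 and -7.86. They were Ttc6, Ptprq, Uts2, Mpp3, Pbsn, Fcer2, Myog, Dnttip1, Sult1c3 and, last, the glutamate transporter Slc1a6. Several are known from other organs, such as Myog, the master regulator of skeletal muscle formation, Pbsn, probasin of the prostate, and Ptprq of the inner ear. Their SDs over animals were 0.74 to 2.13. Dnttip1 had -6.27, -6.08, -6.31 and -10.48 in animals 3, 4, 5 and 8. Among these 10, order has no support in the spread.

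Whether animals under the same treatment differed by more than duplicate arrays was asked with limma, as a moderated F test over the 4 animals with Benjamini-Hochberg adjustment. The test compares 4 cRNA preparations, since only the arrays were duplicated, and says nothing of a condition. Of 8842 probes with a value above 0 on all 8 arrays, 1934 (21.9%) were called at an adjusted p under 0.05. The count depended on which animals were in it, at 818 without animal 3, 1081 without animal 4, 1385 without animal 5 and 824 without animal 8. A setting in which the prior variance follows brightness called 3169. Among tested one-symbol probes 1374 of 6187 were called, with 15.9% of the bright, 21.6% of the middling and 25.3% of the near-background ones. In 997 of the 1374 (72.6%) the highest and the lowest animal were less than 1 log2 unit, or 2-fold, apart.

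Of the 1374 called one-symbol probes, 72 had a range above 2 log2 units (4-fold), 55 of them highest in animal 5, and 39 of them ordered animal 5, then 3, then 4, then 8. Fabp1, the fatty acid carrier of liver and gut, had 1.38, 0.11, 3.42 and -3.91 in animals 3, 4, 5 and 8, a range of 7.33 or 161-fold (limma, adjusted p = 5.3e-05). Cyp1a2, a liver cytochrome P450, had -1.58, -2.56, 1.76 and -5.06, a range of 6.82. The pentraxin Apcs had -3.47, -3.75, -0.22 and -6.62. Gc, the vitamin D carrier of plasma, had 1.08, 0.42, 3.76 and -2.21, a range of 5.97 (limma, adjusted p = 5.9e-05). In each of these 4 genes animal 5 was highest and animal 8 lowest, with 3 above 4 between them.

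The same order ran through the hepatocyte list. Of its 12 tested genes 8 were called, beside 21.9% of all probes, and 8 of 13 ranked genes followed that order. Alb, albumin, had -0.63, -0.999, 1.65 and -2.09 in animals 3, 4, 5 and 8, a 13.3-fold range (limma, adjusted p = 0.0015). Cyp2e1 had 0.25, -0.58, 2.99 and -2.53. The median of the 13 genes was -1.10, -1.37, 0.85 and -2.43 in animals 3, 4, 5 and 8, so the list's class depends on the animal, near background in animal 8 and middling in animal 5. Among the other liver genes of the list, Tat was middling, at -0.41 ± 0.22. Plg was at -2.26 ± 0.22 and not called. A second Plg probe, outside the count, was called and highest in animal 5, with a range of 2.29 (limma, adjusted p = 0.028). The remaining genes were near background in all animals. Fibrinogen beta chain, Fgb, was at -5.60 ± 0.76, Apob at -3.39 ± 0.15 and Cyp2c11 at -2.61 ± 0.23. Without animal 5, of the same 8 genes 7 were still called, and Hp, haptoglobin, had an adjusted p of 0.091 in limma. The ranges over the remaining 3 animals were smaller, at 3.29 in Gc, 2.78 in Cyp2e1, 1.47 in Alb and 1.27 in Apoc3, and 5.29 in Fabp1. The part of liver cells or liver RNA in these values was not tested. The promoters of Fabp1 and Cyp2e1 printed above belong to 2 of these genes. Of 7 hepatocyte genes with a promoter in the table, 0 held GGGCGG and 5 held CCAAT, beside 57.2% and 35.5% of all ranked genes.

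**Figure D5:**
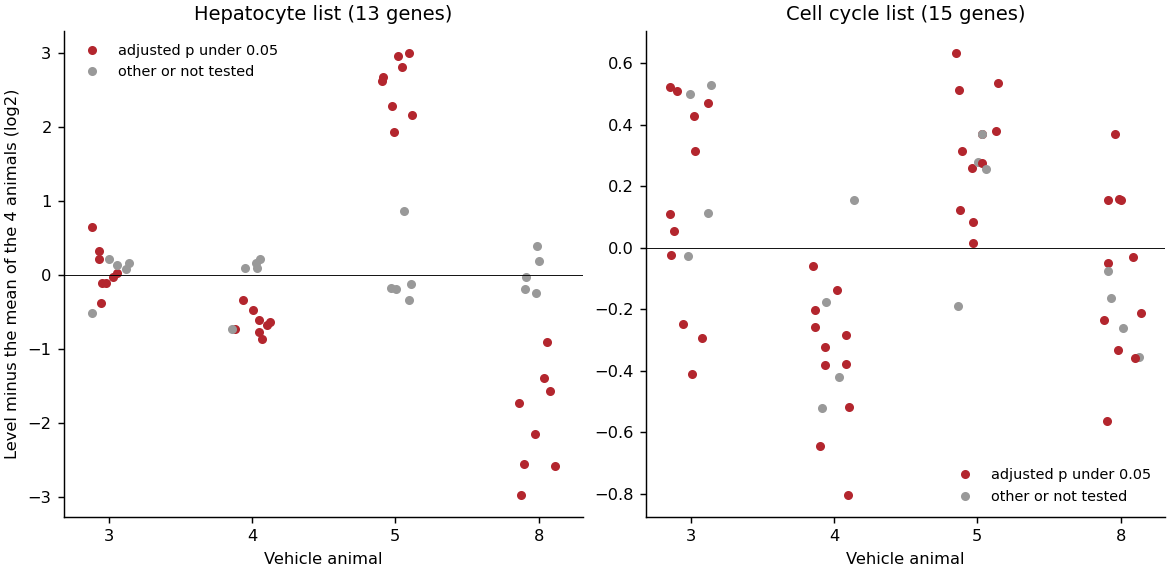
Level of each gene minus its mean over the 4 animals (log2, vertical axis) in vehicle animals 3, 4, 5 and 8 (horizontal axis) for the 13 hepatocyte and 15 cell cycle genes, with genes at an adjusted p under 0.05 in red. The 8 red hepatocyte genes lie above 0 in animal 5 and below 0 in animal 8, and the cell cycle genes are drawn on a narrower axis.

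Of 14 tested pancreas genes 4 (28.6%) were called by limma, beside 21.9% of all probes. Without animal 8 the count was 0, and 3 had an unadjusted p under 0.05. Over all probes that setting called 824, against 1934 with all animals. Pancreatic lipase, Pnlip, had -5.91, -5.90, -5.47 and -1.59 in animals 3, 4, 5 and 8, and its cofactor colipase, Clps, -5.74, -6.45, -6.29 and -4.57, so animal 8 was highest for both. Carboxypeptidase Cpb1 was also highest in animal 8, at -2.24, with -3.67, -3.64 and -3.45 in animals 3, 4 and 5. The fourth called gene, the elastase Cela1, had -4.59, -4.15, -3.54 and -3.54. All 4 were near background in every animal. Over the 15 ranked pancreas genes, animal 8 was highest in 6, animal 4 in 5, animal 3 in 3 and animal 5 in 1. The circadian repressor Nr1d2 had -4.28, -3.61, -3.53 and -1.95.

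Cell cycle genes differed between animals in small steps. Of 13 tested, 11 were called, beside 21.9% of all probes, and the ranges of those called ran up to 1.32, in Hmmr. The count was 7 without animal 3, 6 without animal 4, 8 without animal 5 and 10 without animal 8. Cdk1, the mitotic kinase, had 2.21, 1.06, 2.07 and 1.47 in animals 3, 4, 5 and 8 (limma, adjusted p = 0.0031). Prc1, a spindle midzone protein and the brightest of the list, had 3.58, 2.59, 3.37 and 2.90. Mki67, the proliferation marker, had 1.73, 0.81, 1.51 and 0.87 and was not tested, as 1 of its spots was blank. For these 3 genes animals 3 and 5 lay above animals 4 and 8. The replication genes Pcna and Tyms were lowest in animal 3. The median of the 15 genes over the animals was 0.64, with 1 bright and 5 near background.

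Ranges in the vessel wall lists were narrower than in the hepatocyte list, with no test of that difference. Of 12 tested smooth muscle genes 6 were called, beside 21.9% of all probes, and the widest range was 1.01, in Ppp1r14a. That count was 4 without animal 3 and 2 without animal 4 or without animal 8. Of 18 tested endothelial genes 4 (22.2%) were called, a share near that of all probes. It was 2 without animal 3 or without animal 4, and 11 with the variance trend. Kdr had the widest range of the 4, at 1.40. Of 10 tested macrophage genes 6 were called, and the widest range was 1.00, in C1qb. Without animal 3 the count was 3, without animal 4 it was 4, and without animal 5 or without animal 8 it was 1. Among 9 tested ribosomal protein genes 0 were called by limma, 1 had an unadjusted p under 0.05, 1 was called with the variance trend, and the median range was 0.25. The sex steroid receptors with values on all 8 arrays, Esr1 and Pgr, had ranges of 0.24 and 0.36 and adjusted p values of 0.70 and 0.76 in limma.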

How the data were processed

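Levels came from the deposited value table of the series, 1 intensity column per CodeLink array; the authors' background correction and scaling, and the rule behind blank cells, were not given in the sources used here. The 8 vehicle columns were used. Intensities were taken as log2, values at or below 0 were set to missing, duplicate arrays of 1 cRNA were averaged per animal, and probes with 1 gene symbol (platform annotation, 7284 of 7294 matched to RefSeq genes by gene ID) were ranked by their mean over 4 animals. No group was compared. Differences between animals were tested with limma 3.58.1 (lmFit, eBayes, moderated F over 4 animals, 4 residual degrees of freedom) in R 4.3.3 on probes above 0 on all 8 arrays, with Benjamini-Hochberg adjustment over 8842 probes. The script was tested on simulated data. Per array, 152 to 665 of 10399 cells were blank and 6 to 37 values were at or below 0; the number of arrays limits the precision.

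The subject, the gene lists and the tests were chosen with earlier results of these data known, and the ribosomal and oxidative phosphorylation lists and the printed promoters after values were seen. The rule for naming genes took the 20 brightest, the 5 on either side of the median and the 10 dimmest. It also took the 3 brightest and 2 dimmest of each list and fixed markers. Added to these were the genes with the smallest p or widest range between animals. Some genes under the rule are not printed, such as Gzmb, Ccr7, Tpsb2, Higd1b and Ckm. Further list members were chosen after their values were seen. Alternatives were other lines, averages, scalings, single arrays, left-out animals and, chosen after seeing the data, a minimum of 3 animals and the other lines for the list medians.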

Additional observations from a re-analysis of the deposited data

Results flagged for a closer look

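In 19 of 208 sets of 4 animals examined (9.13%), 1 animal stood apart from the other 3, with a gap over the whole range above Dixon's critical value for 4 samples; chance marks about 1 in 20 sets. Animal 8 was the one apart in 10 sets, animal 3 in 6, animal 5 in 3 and animal 4 in 0.

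Animal 8 was low for Dnttip1 at -10.48 (others -6.31 to -6.08), Uchl1 at -0.43 (0.11 to 0.22), Cnp at 2.80 (3.14 to 3.21), Hsd17b3 at -6.41 (-5.84 to -5.80), Tacr1 at 3.81 (3.89 to 3.90) and Ptgis at 3.14 (3.46 to 3.48). Animal 8 was high for Postn at 5.93 (5.58 to 5.64), Wt1 at -3.06 (-3.69 to -3.62), Pth at -5.53 (-6.19 to -6.16) and the median of the mesothelium list at -1.44 (-2.12 to -2.02), which rests on 2 genes, Wt1 among them.

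Animal 3 was low for Rassf1 at -0.30 (0.13 to 0.21), Igfbp6 at 0.20 (0.97 to 1.10), Slc25a20 at -0.75 (-0.22 to -0.14), Sod1 at 3.78 (4.06 to 4.08), Rhoa at 3.22 (3.34 to 3.36) and Calm2 at 5.04 (5.20 to 5.23). Animal 5 was low for Pln at 4.57 (4.93 to 4.95) and for the median of the Schwann cell list at -0.55 (0.68 to 0.82), where its value for the bright gene Pmp22 was missing. It was high for the median of the oxidative phosphorylation list at 3.51 (3.34 to 3.36).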

How the results depend on the processing

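The near-background count of 2277 probes became 4114 with the line at the 90th percentile of the reference genes; under the other alternatives it was within 1.5 times. With that line 7 list medians lay above it, and 13 with a lower line that 1815 probes fell below, both added after seeing the data. Leaving out 1 animal gave 2185 to 2395 near-background probes, 9 to 12 list medians above the line, and 818 to 1385 probes called between animals. The count of 1934 called between animals became 3169 with a variance trend, of which 1859 were among the 1934. Quantile normalization, median centring, the array letter as a term (1396) and more probes stayed within 1.5 times. With levels in at least 3 animals, added after seeing the data, 2265 probes were near background. Of the levels of single genes under an alternative, 1408 moved by less than their SD, and 48 by more or had no SD. Leaving out 1 animal cannot move a mean over animals by its SD. In each of those settings 179 levels counted as moving by less, a result fixed in advance. With AA arrays alone 12 levels moved by more or had no SD, and with AB arrays alone 11. That number was 8 with quantile normalization and 5 with linear averages. No paired analysis was possible because no groups were compared. Depth limits both ends: the dimmest 726 probes had the widest spread between duplicates, and the top 20 rest on few spots.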

Other observations

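Of the 3017 probes with no gene symbol, 2998 had a level in a vehicle animal, with a median of -0.45. Of these, 232 (7.74%) were at or above the lowest bright level and 1145 (38.2%) at or below the near-background line. The brightest of them, at 6.21 ± 0.11 in 2 animals, lay beside the first ribosomal protein probes.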
